A study of Rattus norvegicus with 112 samples.

Results

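The muscarinic acetylcholine receptors, with the enzymes that make and break acetylcholine, were described from every probe set annotated to Chrm1, Chrm2, Chrm3, Chrm4, Chrm5, Ache or Chat alone. The annotation gave 10 such probe sets among the 1263 that remained once control spots were removed. They covered 6 of the 7 genes, among 720 genes named on the array, with a pair of probe sets each for Chrm1, Chrm2, Chrm3 and Chrm4 and a single one each for Chrm5 and Ache. No probe set was annotated to Chat, so choline acetyltransferase was not analysed here.

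Muscarinic receptors are the G protein-coupled receptors for acetylcholine. Chrm1, Chrm3 and Chrm5 signal mainly through Gq and phospholipase C, which releases calcium from internal stores, while Chrm2 and Chrm4 signal through Gi, which lowers cyclic AMP and opens inwardly rectifying potassium channels. In the cerebral cortex the acetylcholine comes largely from fibres of basal forebrain neurons, Chat makes it and Ache hydrolyses it.

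RNA from primary cultures of rat cerebral cortex neurons was hybridised to 112 Affymetrix arrays. NMDA activates the NMDA class of glutamate receptors, nicotine activates the other, ion channel class of acetylcholine receptors, and 4R is described in the labels as a noncompetitive nicotinic antagonist. Each experiment had its own untreated controls. The first experiment exposed cultures continuously to 1 mM NMDA for 10, 30, 60, 180 or 360 min (3 arrays a group and 3 controls). The pulse experiment gave 1 mM NMDA for 10, 30 or 60 min and collected the RNA 24 h later (4 arrays a group and 4 controls), with a second set of 1 array a group and 4 repeat arrays. The crossed experiment had 4 groups of 3 arrays, nicotine (10 uM, 18 h), NMDA (1 mM, 60 min), nicotine plus NMDA, and control. The washed-out experiment gave the same 4 treatments with 30 min of NMDA and a 24 h washout (5 arrays each), and all its samples were hybridised again in a repeat run, which the labels link to an oven failure. A brief experiment gave 10 uM nicotine for 15 min and 45 min of washout (3 arrays and 3 controls), and 2 uM 4R was given for 18 h without or with a 24 h washout (3 arrays and 3 controls each). The labels do not say whether replicates came from separate animals, so p-values measure only the spread between these arrays, and precision is limited by how many arrays each group had.

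No muscarinic receptor transcript passed the test after any treatment in 7 of the 8 runs, and in the remaining one, the first run of the washed-out samples, Chrm3 and Chrm4 were higher than in controls. Chrm3 rose after NMDA, and Chrm4 rose after nicotine, after NMDA and after both together. These were 4 calls among 169 member tests by limma at an adjusted p of 0.05. In the repeat run of the same samples none of the 4 passed. There each had the other sign with all arrays, and the sign of the first run without 2 of the 5 control arrays, which stood far from all others. In bulk RNA a change in the number of expressing cells and a change in RNA per cell cannot be told apart.

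The signals are array intensities that had been scaled to one mean in every array, with trimmed means between 2503 and 2513. 13 arrays stood apart from their run by their correlation with the others, and the most distant were control replicates 3 and 4 of the repeat washed-out run, with median correlations of 0.0885 and 0.543 where the run's median was 0.921. In the pulse experiment the 60 min array of replicate 4, which stood apart, had a GAPDH 3'/5' ratio of 12.3, a sign of RNA quality, against a median of 1.42 in that run. 1 of the 4 repeat pulse arrays, of the 10 min group, held the same values as its original within 0.05 at all 1322 probe sets and added no new measurement. Of the marker lists, 9 of 12 neuronal, 5 of 8 astrocyte, 4 of 6 oligodendrocyte, 1 of 6 microglial and 0 of 6 endothelial or meningeal genes had a probe set. Of the markers of cholinergic neurons only Slc18a3, the vesicular acetylcholine transporter, was present.

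In the control arrays of all runs but the repeat washed-out run, 25 in all, each member probe set spread over several-fold. The Chrm3 probe set M16407_at read between 1048 and 3569 with a median of 1859, and its run medians ran from 1408 in the first washed-out run to 2549 in the pulse run, 1.81-fold apart. Between those ends stood the continuous, washed 4R, 18 h 4R, crossed and brief nicotine controls, and each run's controls overlapped those of its neighbour in this order. The Chrm4 probe set Z49748exon_at read between 522 and 1195 with a median of 749, and its run medians differed by up to 2.08-fold, counting the single control of the second pulse set as a run. The Chrm5 probe set M22926mRNA_at was more scattered, between 91.4 and 1465 with a median of 631. These 3 probe sets passed the intensity filter, the 30th percentile of the run, in every run.

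The means of the other 7 probe sets lay below the median of their run in every run. The Chrm1 probe set AJ006522mRNA_at read between 132 and 1105 with a median of 273, and the Chrm2 probe set AB017655_s_at read between 130.0 and 511 with a median of 300.1, and both passed the filter in all 8 runs. The second Chrm1 probe set, M16406cds_s_at, had a median of 241 and passed in 5 of 8 runs. The second Chrm3 probe set, AB017656_s_at, had a median of 369 and passed in 7 of 8. The second Chrm2 probe set, J03025_at, had a median of 183 and passed only in the continuous run. The second Chrm4 probe set, M16409_at, with a median of 142, and the Ache probe set X70141_r_at, with a median of 45.6, passed in none, and their values below come from a fit without the filter. Probe sets of one gene followed each other weakly. As log2 values relative to the control mean of each run, the pair correlated over 84 arrays at 0.47 for Chrm1, 0.21 for Chrm2, 0.59 for Chrm3 and 0.37 for Chrm4. Over the 75 of these that did not stand apart the values were 0.33, 0.24, 0.18 and -0.30, a description over arrays that share controls, treatments and scaling.

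**Figure D1:**
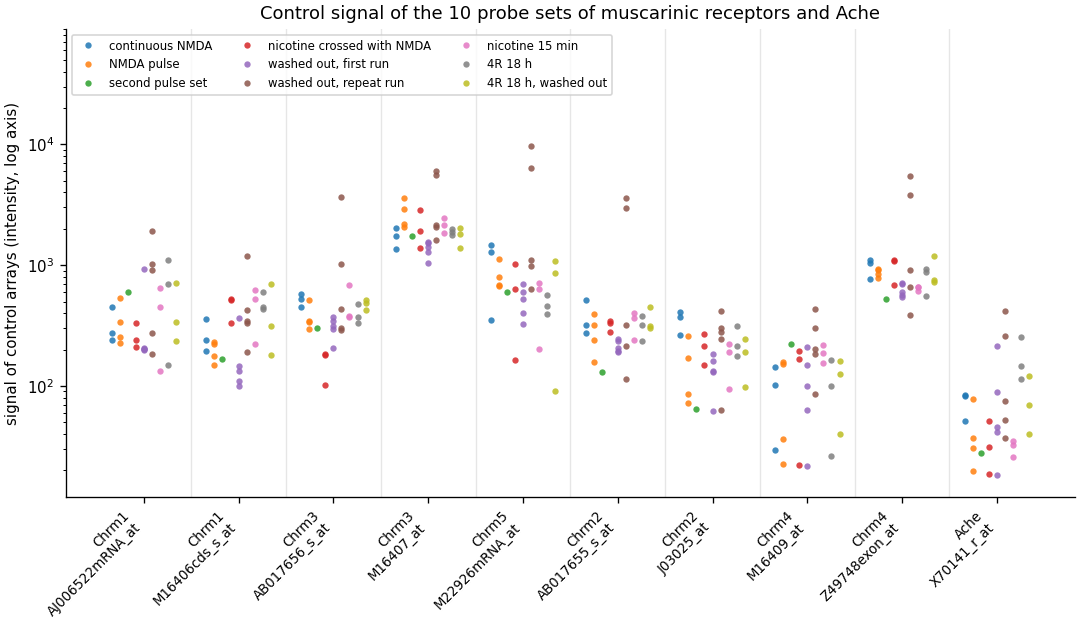
Control signals of the 10 member probe sets on a log axis, in array intensity units, with 1 point per control array coloured by run. The Chrm3 probe set M16407_at lies between 1048 and 3569 in the 25 arrays outside the repeat washed-out run, and the 2 brown points far above the rest for Chrm3 M16407_at, Chrm5, Chrm2 AB017655_s_at and Chrm4 Z49748exon_at are control replicates 3 and 4 of that run.

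Chrm3 was measured 24 h after washout in the first run of the washed-out samples. M16407_at read 1923, 1558, 1789.9, 1884 and 1799 after nicotine, 2395, 2732, 2504, 2177 and 1706 after NMDA, 2363, 1982, 2434, 1605 and 1356 after nicotine plus NMDA, and 1552, 1408, 1292, 1514 and 1048 in controls. Every nicotine and every NMDA array lay above every control array, and the lowest array of the combined treatment lay within the control range. Here and below, groups without overlap are a description only, since the share of all probe sets without overlap is not given. NMDA raised the log2 signal by 0.73 (SE 0.16, 95% interval 0.39 to 1.06, limma adjusted p = 0.00780, n = 5 each). The nicotine difference was 0.39 (SE 0.16, adjusted p = 0.217) and the difference for nicotine plus NMDA was 0.48 (adjusted p = 0.0636), and neither passed. The combined treatment against NMDA alone gave a change of -0.25 and the interaction was -0.64 (adjusted p = 0.407), neither of which passed. The second Chrm3 probe set, AB017656_s_at, did not follow, with changes of -0.38, -0.12 and 0.16 after nicotine, NMDA and both, none of which passed.

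Chrm4 stood higher in the same run after each treatment. Z49748exon_at read 956, 759.6, 1079.5, 1031 and 1134 after nicotine, 801, 863, 1015, 988 and 710.2 after NMDA, 814, 870.2, 1005, 886 and 941 after nicotine plus NMDA, and 714, 563, 542, 603 and 702 in controls. All nicotine arrays and all arrays of the combined treatment lay above all controls, and 1 NMDA array lay just under the highest control. Chrm4 rose by 0.62 after nicotine (SE 0.13, adjusted p = 0.0481), by 0.45 after NMDA (adjusted p = 0.0264) and by 0.50 after both (adjusted p = 0.0192), on the log2 scale. The combination differed from NMDA alone by 0.05, and the interaction of -0.57 did not pass (adjusted p = 0.378). The dimmer Chrm4 probe set M16409_at changed by -0.05, 0.54 and 0.46 in the unfiltered fit, with none past the threshold.

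Across all probe sets of that run, 5.02% of tests passed the adjusted threshold and 16.9% had an unadjusted p under 0.05, while of the 30 member tests 4 passed and 8 had an unadjusted p under 0.05. Rises made up 0.339% of probe sets for nicotine, 11.1% for NMDA and 8.26% for the combination. Members that rose were 1 of 6 for nicotine (Chrm4), 2 of 6 for NMDA (Chrm3 and Chrm4) and 1 of 6 for the combination (Chrm4). The median change of the 6 tested member probe sets was 0.31, 0.21 and 0.25 after nicotine, NMDA and both, beside 0.11, 0.16 and 0.14 over all 884 probe sets tested.

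The Chrm3 and Chrm4 differences depended on the scaling, and the median of all probe sets was itself above 0 in this run. Against the shift of all probe sets, 0.108 for nicotine, 0.157 for NMDA and 0.143 for both, the rises of Chrm3 and Chrm4 were larger, and with each array centred on its median Chrm3 still rose after NMDA by 0.46 (adjusted p = 0.0464). Centred in the same way, Chrm4 changed by 0.36 after nicotine, 0.18 after NMDA and 0.25 after both, with adjusted p-values of 0.123, 0.402 and 0.247, so its 3 calls were lost. With quantile normalization no member passed, Chrm3 having an NMDA change of 0.56 (adjusted p = 0.0572), and none of the 4 called changes turned its direction under either scaling.

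Single arrays decided some of these calls. Chrm3 after NMDA passed with each of the 20 arrays left out in turn, with changes between 0.64 and 0.83. Chrm4 after nicotine passed in 5 of those 20 fits, with adjusted p-values between 0.0109 and 0.117. Chrm4 after NMDA passed in 14, being lost without replicate 2, 3 or 4 of either the controls or the NMDA group. Chrm4 after both passed in 19, being lost without replicate 3 of that group (adjusted p = 0.0555). The 4 replicates numbered 5 stood apart, 1 in each group, and without them Chrm4 after nicotine had a change of 0.61 with an adjusted p of 0.140, while Chrm3 after both passed with a change of 0.51 (adjusted p = 0.0300). With the replicate number as a block, Chrm3 after both also passed (adjusted p = 0.0159), for 5 calls in place of 4.

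Markers of other cells were summed beside these results. The 9 neuronal genes summed to a median of 116587 (lowest 115429, highest 130007) after nicotine, 130348 (114509 to 131495) after NMDA, 120925 (101685 to 125867) after both and 127558 (122019 to 140560) in controls, and the groups overlapped. The oligodendrocyte genes summed to a median of 3777 (3458 to 6813) after nicotine, 3940 (3816 to 7115) after NMDA, 3685 (3310 to 6731) after both and 3372 (2943 to 4488) in controls, so these medians were higher in the treated groups, as those of Chrm3 and Chrm4 were. The astrocyte sums lay between 17185 and 24098 in all groups and overlapped. The sole marker of cholinergic neurons on the array, Slc18a3 (X80395cds_s_at), had a median of 1500.0 (1065 to 1677) after nicotine, 1285 (1123 to 1426) after NMDA, 1277 (1076 to 1305) after both and 990.0 (673 to 1032) in controls. Its treated groups lay above the controls without overlap, as Chrm4 did after nicotine and after both. Its change of 0.44 after NMDA passed the test (limma adjusted p = 0.0446). The other Slc18a3 probe set, U09211_at, passed in none of 26 tests over all runs, with changes between -0.33 and 0.41. In the repeat run X80395cds_s_at had medians of 1200 after nicotine, 1417 after NMDA, 1262 after both and 1315 (708 to 4479) in controls.

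Markers of other lists were also called in that run, where 11.1% of all probe sets rose after NMDA and 8.26% after both. Nefl, a neurofilament subunit, rose by 0.52 and 0.78 at a pair of probe sets after NMDA and by 0.96 at one of them after both. Glul, the astrocyte glutamine synthetase, rose by 0.66 at one probe set after both, and Mag, a myelin glycoprotein, rose after NMDA and after both. The part of these markers in the receptor results was not tested.

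**Figure D2:**
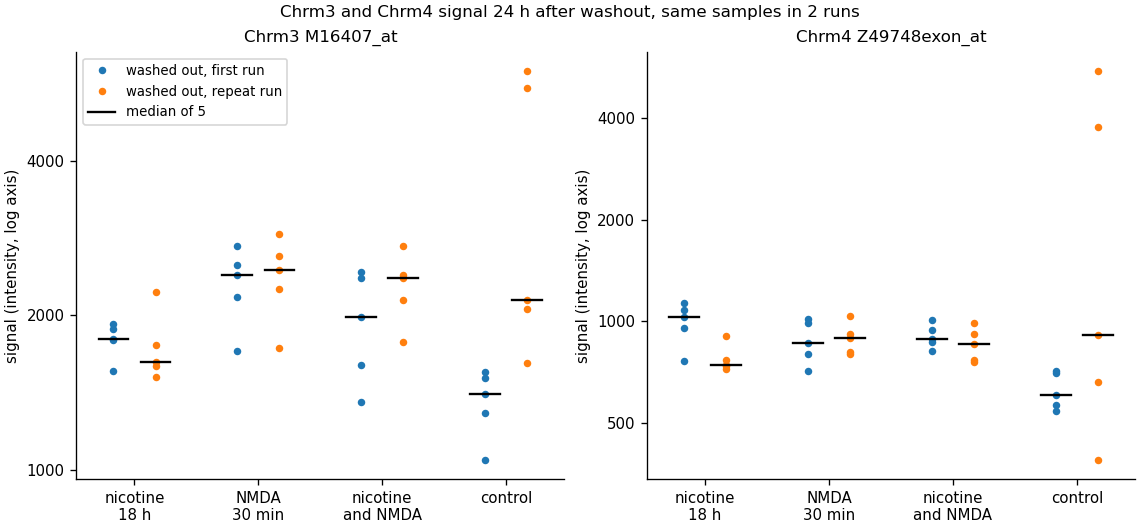
Signal of Chrm3 (M16407_at) and Chrm4 (Z49748exon_at) in each washed-out sample, in array intensity units, for nicotine, NMDA, nicotine plus NMDA and control, with the first run in blue, the repeat run in orange and black lines at the median of 5. In the first run the Chrm4 nicotine arrays lie between 759.6 and 1134 above controls of 542 to 714, and in the repeat run 2 controls read 5517 and 3782.

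The start regions of these 2 genes are shown because they are the members called. They are the 250 bases before the annotated start in the RefSeq table of build GRCr8, with matches to the motifs searched in capitals. The region of Chrm3 is chr17:64696677-64696926 and that of Chrm4 is chr3:98348830-98349079, both on the plus strand. Both lie upstream of the first exon of the annotated transcript.
Chrm3: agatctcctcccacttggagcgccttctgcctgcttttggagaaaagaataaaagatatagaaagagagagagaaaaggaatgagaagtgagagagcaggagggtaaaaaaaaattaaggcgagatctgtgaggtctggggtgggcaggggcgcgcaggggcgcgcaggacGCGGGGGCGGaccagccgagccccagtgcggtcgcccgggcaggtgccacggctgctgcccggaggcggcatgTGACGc
Chrm4: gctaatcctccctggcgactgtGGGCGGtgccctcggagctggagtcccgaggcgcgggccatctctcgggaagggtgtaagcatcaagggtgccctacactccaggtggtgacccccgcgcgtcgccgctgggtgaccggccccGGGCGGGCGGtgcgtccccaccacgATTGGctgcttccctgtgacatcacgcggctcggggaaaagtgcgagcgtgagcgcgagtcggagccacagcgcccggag
In the Chrm3 region the capitals mark the EGR1 motif GCGNGGGCG, which there overlaps a GC box, GGGCGG, and the cyclic AMP response element half-site TGACG near the start. In the Chrm4 region they mark 3 GC boxes, a pair of which overlap, and a CCAAT box, CCAAT, on the opposite strand. Both strands were searched, also for the AP-1 motif TGACTCA, which neither region held, and the Chrm4 region held no TGACG or EGR1 match. Of 33469 rat promoters of that length, 18.2% held TGACG, 4.05% TGACTCA, 4.29% the EGR1 motif, 30.5% a GC box and 34% a CCAAT box. GC content was 60% for Chrm3 and 70.4% for Chrm4. 6 of the 7 genes, all but Chrm5, had an entry in the table. The regions of Chrm1, Ache and Chat held 1 TGACG match each, that of Ache also 2 EGR1 matches and 4 GC boxes, that of Chat also 2 CCAAT boxes, and that of Chrm2 a single GC box. A match is a run of letters and not a measured site.

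The repeat run of the washed-out samples gave another picture, which rested on its controls. Chrm3 M16407_at read 1750.5, 1521, 1624, 2224 and 1597 after nicotine, 2250.0, 2889, 2449, 2614 and 1726 after NMDA, 2149, 2368, 2735, 2399 and 1775 after both, and 1617, 2063, 5562, 5982 and 2139 in controls. Most treated arrays of Chrm3 read much as in the first run, while control replicates 3 and 4 lay above every other array. Control replicates 2 and 5 also read higher than in the first run, 1.47 and 2.04 times, and replicate 1 read 1.04 times. The ratio of 2.04 was the highest among the 18 samples other than control replicates 3 and 4, and nicotine plus NMDA replicate 4 followed at 1.49. The first-run reading of control replicate 5, 1048 and the lowest of the controls there, was thus not repeated. Control replicate 2 read 1408 in the first run, the median of the controls there. The cause of these differences between the runs was not tested. Chrm4 Z49748exon_at read 765, 735, 721, 905 and 741 after nicotine, 895, 801, 1035, 809.6 and 914 after NMDA, 758, 768, 855, 985 and 917 after both, and 388, 912, 5517, 3782 and 658 in controls. Chrm5, in which the 2 control arrays were the most extreme, read 699, 596, 332, 395 and 549 after nicotine, 918, 436, 787, 1111 and 431 after NMDA, 940.4, 835, 807, 1089 and 375 after both, and 1113, 976, 9620.5, 6369 and 639 in controls. The other 3 controls lay within the range of the treated arrays for Chrm3 and, but for one just above it, for Chrm5, while for Chrm4 they spread to either side of the nicotine arrays.

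With all arrays, every tested member was lower than control after each treatment in that run, and no call passed. The median change of the 7 tested members was -1.23 after nicotine, -0.63 after NMDA and -1.06 after both. Chrm5 changed by -1.99 (limma adjusted p = 0.202), -1.56 (adjusted p = 0.226) and -1.42 (adjusted p = 0.193). Of the 35 member tests, 12 had an unadjusted p under 0.05, where 12% of all tests did, and 0.0905% of all tests passed the adjusted threshold. Without control replicates 3 and 4 the changes of Chrm4 were 0.29, 0.48 and 0.43 and those of Chrm3 were -0.15, 0.28 and 0.23 after nicotine, NMDA and both, so 5 of these 6 turned sign. Those of Chrm5 were -0.77, -0.34 and -0.20. None of them passed, with adjusted p-values for Chrm4 of 0.732, 0.203 and 0.277, and 2 member tests had an unadjusted p under 0.05.

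The same RNA samples could be compared across both runs. Over all probe sets, the 18 other samples correlated between the runs at 0.934 to 0.976, and control replicates 3 and 4 at 0.0950 and 0.556. In those 2 samples the repeat signal was 29.4 and 15.7 times the first for Chrm5, 18.6 and 14.3 times for Chrm2 AB017655_s_at, 10.2 and 6.27 times for Chrm4 Z49748exon_at, 9.08 and 13.9 times for Ache and 4.30 and 3.95 times for Chrm3 M16407_at. The second probe sets moved less for Chrm2, 2.27 and 1.76 times at J03025_at, and for Chrm4, 4.30 and 1.43 times at M16409_at, and the Chrm2 ratios lay within the range of the other samples, which reached 2.29. In the other 18 the median ratio lay between 0.87 and 1.21 for every member probe set. With both runs averaged over every array no member passed. With the average taken but control replicates 3 and 4 from the first run alone, a choice made after their distance was seen, Chrm3 rose by 0.59 after NMDA (adjusted p = 0.00763) and by 0.44 after both (adjusted p = 0.0398). In that average Chrm4 rose by 0.49 after NMDA (adjusted p = 0.00586) and by 0.48 after both (adjusted p = 0.00885), while its nicotine change of 0.48 did not pass (adjusted p = 0.275). The average reuses the first-run values of every sample, so its calls are not independent of the first-run calls and add no separate support.

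**Figure D3:**
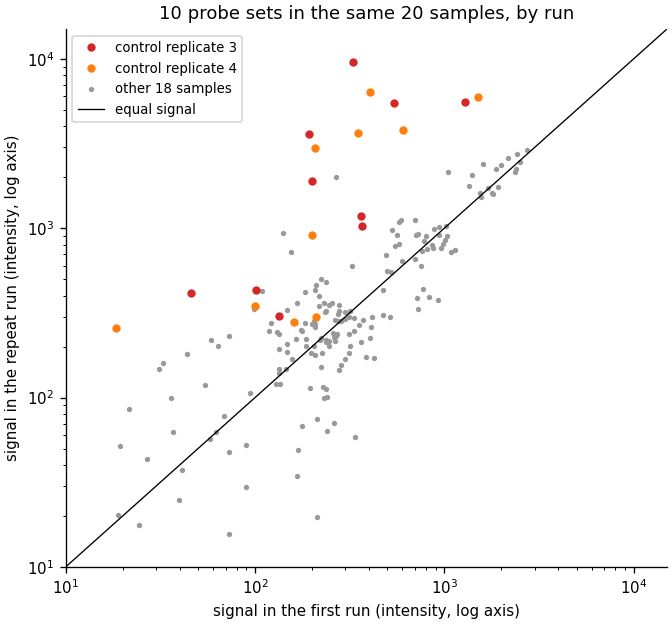
Signal of the member probe sets in the repeat run against the first run of the washed-out samples, 1 point per probe set and sample, both axes logarithmic in array intensity units. The points of control replicates 3 and 4 lie above the line of equality, up to 29.4 times for Chrm5, and the other 18 samples scatter around it.

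Outside the washed-out experiment no Chrm3 change passed. Under continuous NMDA, M16407_at read 2044, 1367 and 1738 in controls, 2083, 1384 and 1978 at 10 min, 2535, 1878 and 2049.6 at 30 min, 1705, 1652 and 1825 at 60 min, 1673, 1119 and 1254 at 180 min, and 1899.8, 1658 and 1290.1 at 360 min. Every time point overlapped the controls, and the changes were 0.07, 0.32, 0.03, -0.33 and -0.08. Against the control of the same replicate number, all 3 arrays were higher at 30 min and all 3 lower at 180 min, and with the replicate block these changes did not pass (limma adjusted p = 0.998 and 0.813). In the pulse run Chrm3 read 3569, 2082, 2197 and 2901 in controls, 3518, 2142, 5010.5 and 2747 after 10 min, 2533, 2722, 3295 and 2261 after 30 min, and 3154, 2039, 2226 and 5381 after 60 min. The 2 high values, 5010.5 and 5381, were on arrays that stood apart, and the changes of 0.28, 0.03 and 0.17 became 0.06 after 10 min and -0.11 after 60 min without them. On its repeat array the 60 min sample of 5381 read 2282. Other repeat arrays read 3312 for 2747 after 10 min and 2280 for 3295 after 30 min. The single arrays of the second pulse set read 1747 in the control and 2088, 2412 and 2096 after 10, 30 and 60 min.

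The 30 min pulse followed by 24 h was given in both the pulse run and the washed-out experiment, so the Chrm3 change could be set against itself. It was 0.70 larger in the first washed-out run than in the pulse run (95% interval -0.02 to 1.42, limma adjusted p = 0.665), and the Chrm4 change was 0.29 larger (adjusted p = 0.919). Among 847 probe sets tested for this difference none passed and 62 had an unadjusted p under 0.05, so the runs were not shown to differ, and the interval for Chrm3 reaches from near 0 to a large difference. One label field gives replicate 1 of the 30 min pulse group 60 min of NMDA, while its title and description give 30 min, the group it was kept in. Without it the difference was 0.67 (-0.09 to 1.43) for Chrm3 and 0.26 for Chrm4, and the pulse changes themselves were 0.05 and 0.19. This comparison was added after both runs had been seen.

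In the crossed run Chrm3 M16407_at changed by 0.03 after nicotine, 0.12 after NMDA and 0.07 after both. Replicate 2 of the controls and of the NMDA group stood apart in that run. Without these arrays the changes were 0.01, 0.13 and 0.05. After brief nicotine M16407_at changed by 0.07 and after washed 4R by 0.13. After 18 h of 4R it read 2147, 2009 and 2143, against 1894, 1767 and 1985 in controls. The groups did not overlap, and the change of 0.15 did not pass (limma adjusted p = 1.00). The dimmer AB017656_s_at did not overlap its controls after 30 and 60 min of continuous NMDA, with 404, 410.3 and 269.9 at 30 min and 288, 386 and 379 at 60 min against 451, 577 and 521 in controls. The changes of -0.44 and -0.46 did not pass. In the crossed run, in the fit without the filter, it read 200, 271 and 359.7 after NMDA and 194, 313 and 367 after both, against 185, 101 and 179.6 in controls. These did not overlap either, and their changes of 0.65 and 0.71 did not pass.

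Chrm1, the main Gq-coupled muscarinic receptor of cortical neurons, showed no change that passed in any run. AJ006522mRNA_at changed by 0.14, 0.07, 0.19, -0.08 and 0.55 after 10, 30, 60, 180 and 360 min of continuous NMDA, and by 0.21, 0.03 and -0.10 after the 10, 30 and 60 min pulses. Without the arrays that stood apart the change was 0.63 at 10 min and 0.19 at 360 min of continuous NMDA, and 0.06 and -0.25 after the 10 and 60 min pulses. Its arrays scattered within groups, as after 18 h of 4R, where it read 301, 1258 and 457, against 1105, 696 and 150.1 in controls. In the first washed-out run 1 control array read 937 while the other 4 read between 198 and 207, and the arrays of the combined treatment read between 221 and 247. The changes there were 0.12 after nicotine, -0.18 after NMDA and -0.20 after both, and -0.12, -0.30 and -0.32 without the arrays that stood apart. The control at 937 did not stand apart, so both fits kept it, and the same sample read 1014 in the repeat run. The arrays of the combined treatment lay above the other 4 controls, so the negative sign after both rested on that control. After brief nicotine the change of 0.23 became -0.32 without such arrays. M16406cds_s_at had its lowest change, outside the repeat washed-out run, after brief nicotine, -0.44, with 244, 186 and 547 against 223, 622 and 520.3 in controls. Its highest was in the crossed run after nicotine, 0.55, or 0.36 without the arrays that stood apart.

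Chrm5, another Gq-coupled receptor, had the widest spread in controls among the members that passed the filter in every run. Under continuous NMDA it read 351, 1286 and 1465 in controls, 983, 1475 and 1326 at 10 min, 365, 309 and 483 at 30 min, 1095, 1374 and 924 at 60 min, 790.1, 449.6 and 907 at 180 min, and 935, 2190.0 and 1497 at 360 min. All 3 arrays at 30 min were low, but 1 control was as low, so the groups overlapped. The 30 min change of -1.07 (SE 0.43) was the sole member test of that run with an unadjusted p under 0.05, and it did not pass (limma adjusted p = 0.998). The neighbouring times gave 0.45 at 10 min and 0.30 at 60 min.

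In the pulse run Chrm5 read 802, 678, 689 and 1121 in controls and 482, 334, 571 and 2196 after 60 min. The highest of these was on the array with the GAPDH ratio of 12.3, and the change of -0.22 became -0.76 without the arrays that stood apart. The repeat array of the sample with 2196 read 645. In the crossed run Chrm5 read 124, 156 and 655 after nicotine, 529, 1114 and 1165 after NMDA and 1106, 469 and 426 after both, against 163, 635 and 1022 in controls. The groups overlapped, with changes of -0.86, 0.78 and 0.28. Without the control and NMDA arrays of replicate 2, which stood apart, these were -0.69, 0.79 and 0.45. After brief nicotine it read 806, 734 and 334, against 631, 203 and 718 in controls, a change of 0.32, or 0.61 without the control array that stood apart. After 18 h of 4R it read 608, 97.6 and 128, against 457, 397 and 567 in controls, a change of -0.96 (limma adjusted p = 1.00), and after washed 4R it changed by 0.22. In the first washed-out run its changes were 0.36, 0.28 and 0.07 after nicotine, NMDA and both, and none of these passed.

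Chrm4, the Gi-coupled receptor known in the forebrain as a brake on cyclic AMP and on transmitter release, overlapped its controls at every time of continuous NMDA. Z49748exon_at read 761, 1036 and 1111 in controls, 822, 1167 and 1338 at 10 min, 872, 1049 and 1125 at 30 min, 1001, 1254 and 825 at 60 min, 989, 1159 and 749 at 180 min, and 801, 2555 and 647 at 360 min. The value of 2555 was on an array that stood apart, and the 360 min change of 0.20 turned to -0.37 without it. After pulses Chrm4 read 778, 907, 927 and 839 in controls, 616, 646, 2174 and 1429 after 10 min, 891, 1010.1, 1241 and 775 after 30 min, and 686, 518, 982 and 1788 after 60 min. All pulse groups overlapped the controls, with changes of 0.28, 0.15 and 0.05, and without the 2 arrays that stood apart the 10 min change was -0.05 and the 60 min change -0.27. Repeat arrays read 679 for 1429 after 10 min, 894 for 1241 after 30 min and 836 for 1788 after 60 min. The second pulse set read 522 in the control and 531, 684 and 486 after 10, 30 and 60 min.

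In the crossed run Chrm4 changed by -0.37 after nicotine, -0.03 after NMDA and -0.38 after both. Without the control and NMDA arrays of replicate 2, which stood apart, these changes were -0.27, -0.01 and -0.28. Chrm4 read 675, 645 and 818 after nicotine and 708, 625.4 and 789 after both, against 687, 1086 and 1093 in controls. The 18 h nicotine groups overlapped the controls there, and in the washed-out experiment, which added a 24 h washout, the change after nicotine had the other sign, but the difference between the runs was not tested. After brief nicotine the Chrm4 change was -0.10, after 18 h of 4R -0.09 and after washed 4R 0.22, and none passed.

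Chrm2, the other Gi-coupled receptor and a presynaptic autoreceptor of cholinergic terminals, was lower after NMDA in the crossed run without passing the threshold. AB017655_s_at read 395, 248 and 269 after nicotine, 169.8, 257 and 166 after NMDA and 158, 118 and 253 after both, against 332, 277 and 344 in controls. Every array that had received NMDA, with or without nicotine, lay below every control, and the nicotine arrays did not. The change was -0.57 after NMDA (limma adjusted p = 0.957) and -0.72 after both (SE 0.34, adjusted p = 0.680). Replicate 2 of the controls and of the NMDA group stood apart in this run. Without these arrays the changes were -0.81 (adjusted p = 0.936) and -0.80 (adjusted p = 0.742), and neither passed. The second Chrm2 probe set, J03025_at, in the fit without the filter, read 70.1, 110.5 and 60.4 after both, against 269, 214 and 148 in controls, a change of -0.95 (adjusted p = 0.694, with the unadjusted value under 0.05). After NMDA alone J03025_at changed by -0.21 and overlapped the controls.

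Elsewhere the Chrm2 differences varied in sign, and none passed. Under continuous NMDA AB017655_s_at read 276, 511 and 318 in controls and 2072, 485 and 258 at 10 min. The highest was an array that stood apart, and the change of 0.76 became -0.00 without it. At 60 min, the NMDA time of the crossed run, AB017655_s_at read 459, 672 and 329. That change of 0.33 had the other sign than the crossed run's and did not pass either. After the 60 min pulse the change was -0.31 and after 18 h of 4R it was -0.37, with 224, 221 and 223 against 378, 234 and 319.9 in controls. Those 4R arrays lay just below all controls, while after washed 4R the change was 0.40, with 515, 444 and 511 against 313, 454 and 300.1 in controls. In the first washed-out run AB017655_s_at changed by 0.25, 0.14 and 0.34 after nicotine, NMDA and both. There J03025_at, in the fit without the filter, changed by 0.72 after nicotine and 0.63 after both (adjusted p = 0.150 for each), and neither passed.

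Ache, the enzyme that ends the acetylcholine signal, gave signals near the bottom of the array's range, and its values come from the fit without the filter. After 18 h of 4R it read 53.7, 93.6 and 40.0, against 147, 254 and 115 in controls. The groups did not overlap, and the change was -0.88 (SE 0.30, limma adjusted p = 0.999, with the unadjusted value under 0.05). After washed 4R it read 255, 59.9 and 152, against 40.1, 69.1 and 122 in controls, a change of 0.51 with overlap. In the crossed run it read 114, 26.6 and 134 after NMDA, against 18.6, 51.4 and 31.5 in controls, a change of 0.64 (adjusted p = 0.835, with the unadjusted value under 0.05). In the first washed-out run the changes were 0.30, -0.43 and -0.36 after nicotine, NMDA and both. No Ache value passed in any run.

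**Figure D4:**
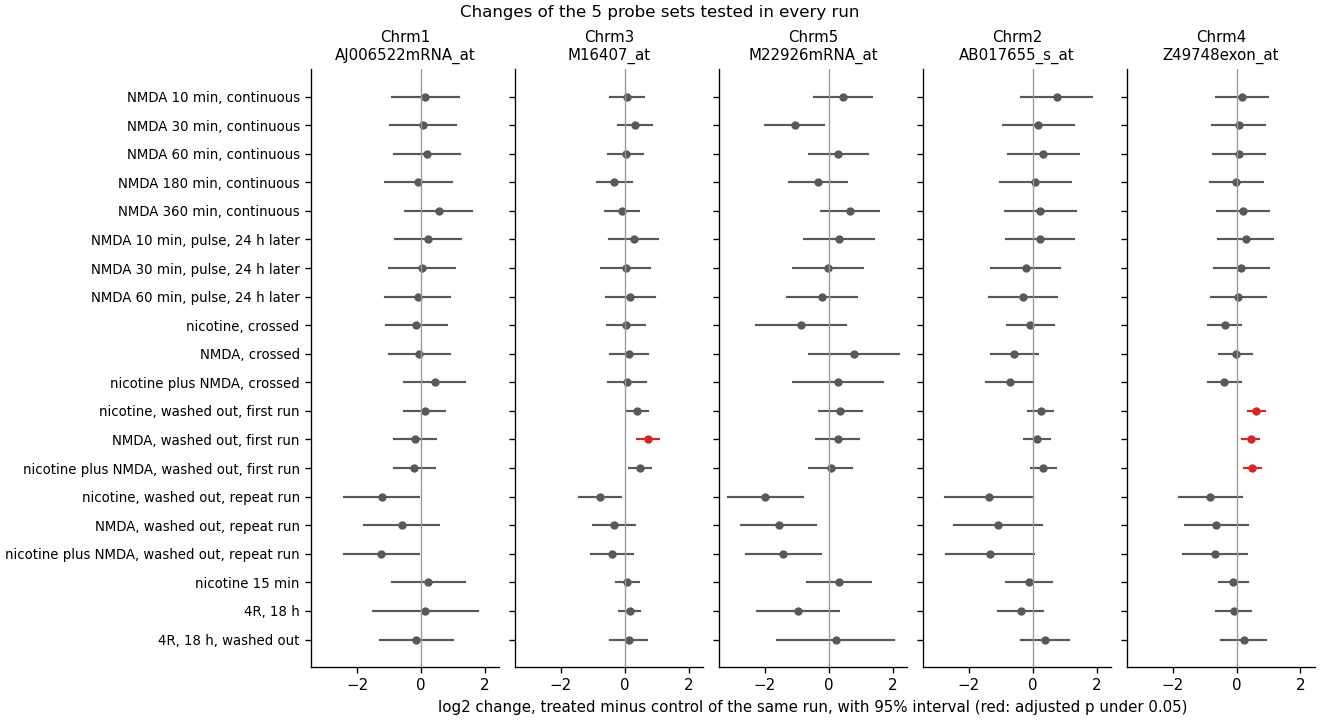
Log2 change with its 95% interval for 5 member probe sets tested in every run (Chrm1 AJ006522mRNA_at, Chrm3 M16407_at, Chrm5 M22926mRNA_at, Chrm2 AB017655_s_at, Chrm4 Z49748exon_at), each treatment against the controls of its own run. Only 4 points are red for an adjusted p under 0.05, all in the first washed-out run, and most intervals cross 0.

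Apart from the washed-out runs, the member counts of the filtered fit, read against all probe sets, were below or near the background. In the continuous run 0 of 35 member tests passed and 1 had an unadjusted p under 0.05, beside 0.226% and 4.66% of all tests. In the pulse run the counts were 0 and 0 of 18, beside 1.73% and 6.83%, and in the crossed run 0 and 0 of 30, beside 0.385% and 4.3%. For brief nicotine they were 0 and 0 of 7, beside 0% and 3.28%, for 18 h of 4R 0 and 0 of 7, beside 0% and 2.04%, and for washed 4R 0 and 0 of 7, beside 0% and 1.58%. Without the filter, 4 of 50 crossed, 1 of 10 18 h 4R and 1 of 50 continuous member tests had an unadjusted p under 0.05. The pulse, brief nicotine and washed 4R runs had none. No member passed in that fit in these runs, and its share over all probe sets is not given. The median half-width of the 95% interval of a member was 0.95 in the continuous and pulse runs, 0.96 in the crossed run, 0.71 for brief nicotine and for 18 h of 4R, 0.89 for washed 4R and 1.17 in the repeat washed-out run, but 0.55 in the first washed-out run. Changes smaller than these widths were mostly not detectable at that number of arrays.

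Genes that work with these receptors were counted by the probe set with the highest mean, and they passed only in the pulse run and the first washed-out run. After the NMDA treatment of the first washed-out run 3 of 11 tested nicotinic receptor subunits rose, and none fell, where 11.1% of all probe sets rose. Subunits with a called probe set were Chrna7 (1.70, SE 0.43), Chrnb4 (0.91), Chrng (0.56) and Chrnb1 (0.50). The median change of the 11 was 0.48, beside 0.16 over all probe sets. Of the transport list, Slc18a3 rose by 0.44 (limma adjusted p = 0.0446) at X80395cds_s_at but did not pass at U09211_at. Colq, which anchors acetylcholinesterase, did not pass. Of 5 Gi partners 2 rose, the calcium channel subunits Cacna1b by 0.45 and Cacna1a by 0.66, with a list median of 0.45. Of 10 Gq partners none passed, with a list median of 0.03 and 3 with an unadjusted p under 0.05 beside 27.6% of all probe sets, although another probe set of Arrb2, an arrestin, fell by 0.46 on the log2 scale.

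After nicotine plus NMDA in that run, 2 of 11 nicotinic subunits rose, Chrna7 by 1.61 among them, 1 of 5 Gi partners rose (Cacna1b, 0.35), and 1 of 10 Gq partners fell (Camk2b, a kinase activated by calcium, -0.31). Of all probe sets 8.26% rose and 2.49% fell in that contrast. Of 5 trophic factors 1 fell, Lif, by 1.07 on the log2 scale. After nicotine alone none of these lists had a called member, with 1, 2, 1, 0 and 0 genes at an unadjusted p under 0.05 in the transport, nicotinic, Gq, Gi and trophic lists (2, 11, 10, 5 and 5 genes tested), beside 17.4% of all probe sets. In the pulse run the trophic list had 1 of 5 genes that rose after each pulse, Bdnf, a factor induced by neuronal activity, with changes from 1.83 to 3.18 at its called probe sets, where 2.26%, 1.36% and 1.58% of all probe sets rose after 10, 30 and 60 min, while Chrm3 and Chrm4 overlapped their controls in the same arrays. In the first washed-out run Bdnf was also higher after NMDA and after both, by 1.10 to 1.77 at its called probe sets, though not at the probe set with the highest mean.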

How the data were processed

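Intensities of 112 Affymetrix arrays were read from the authors' deposited value table. The software and steps behind these intensities are not given in the sources used here. Of 1322 probe sets, 59 controls were left out. Genes were named from the platform annotation, 1137 probe sets having 1 gene, 8 several and 118 none.

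In each run an offset, the 10th percentile of the run's positive values, was added before log2, and probe sets below the 30th percentile of mean log2 were left out, which kept 884. Group means were fitted over all groups of a run with limma 3.58.1 in R 4.3.3 (eBayes with an intensity trend), 2-sided, with Benjamini-Hochberg adjustment within a contrast and a threshold of 0.05. The fit was tested on simulated data. An array stood apart where its median correlation lay over 5 median absolute deviations below the run's median.

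The members, the gene lists and the alternatives were chosen with earlier results of these data known. All probe sets of the members are named. List members past the threshold were named, at most 5 a contrast by size of change. The alternatives were other offsets, filters, scalings and variance models, the replicate block, arrays left out, and the repeat arrays.

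Same-numbered arrays deviated together in every pair of the continuous run (lowest correlation 0.109) and the 18 h 4R run (lowest 0.450). Dates in the labels also pair the pulse, crossed and 18 h 4R arrays and 2 of the 3 washed 4R pairs. The block changed no call in these runs.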

Additional observations from a re-analysis of the deposited data

Results flagged for a closer look

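Of 120 groups of 4 or 5 arrays, each for 1 member probe set, 13 had an array far outside the others by Dixon's test. Chance gives about 1 in 20 for normally distributed values in independent groups. These values were intensities without log2, and the groups share arrays and samples. All 13 were the highest array of their group, so the count is not read as an excess over chance. 4 of the 13 were on arrays that stood apart from their whole run.

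Chrm1 gave 7 of them. AJ006522mRNA_at read 937 in first-run washed-out control replicate 1, where the nearest other control was 207. The same sample read 1014 in the repeat run. In the repeat run AJ006522mRNA_at read 1994 in NMDA replicate 1, with 286 nearest, and 351 in nicotine plus NMDA replicate 5, with 219 nearest. The first-run readings of these samples were 267 and 245. M16406cds_s_at read 498 in first-run NMDA replicate 1 (nearest 208), 425 in nicotine plus NMDA replicate 2 (nearest 186) and 362 in control replicate 3 (nearest 148). In the repeat run it read 1185 in control replicate 3, with 423 nearest.

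The other receptors gave 4. Chrm3 AB017656_s_at read 3673 in repeat-run control replicate 4, with 1024 nearest. Chrm5 read 2196 in replicate 4 of the 60 min pulse, with 571 nearest, and 645 on the repeat array of that sample. Chrm4 Z49748exon_at read 905 in repeat-run nicotine replicate 4 (nearest 765), and M16409_at read 224 in first-run nicotine replicate 4 (nearest 72.9).

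Ache gave 2. X70141_r_at read 160.3 in repeat-run nicotine plus NMDA replicate 4, with 43.2 nearest, and 90.0 in first-run nicotine plus NMDA replicate 5, with 39.6 nearest.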

How the results depend on the processing

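The 169 member changes were recomputed under the alternatives, giving 4489 values. Of these, 4312 stayed on their side of the threshold and, where not called, moved within the spread between replicates, 127 that were not called moved further, 33 lost a call, 5 gained one and 12 turned sign to a call. In all, 317 values turned sign, the others without a call on either side. In the continuous, pulse, crossed, repeat washed-out, brief nicotine and both 4R runs the count of called members stayed at 0 with each array left out in turn (0 to 0), and with the replicate block. With the first run in place of the repeat run of the washed-out samples the count was 4, and with both runs averaged but control replicates 3 and 4 from the first run alone it was 4, and 4 again with the replicate block. The values that turned sign to a call against the repeat run were, in the first run, Chrm3 after NMDA (0.73) and Chrm4 after nicotine (0.62), NMDA (0.45) and both (0.50). In the average they were Chrm3 after NMDA (0.59) and both (0.44) and Chrm4 after NMDA (0.49) and both (0.48), the same with the replicate block. The cause of the 2 distant controls was not tested. For the first washed-out run, whose alternatives were added after the data were seen, the 4 calls became 1 with median centring, 0 with quantile normalization and 2 with only the groups compared in the fit, and 2 to 5 with single arrays left out. With the replicate block there were 5. Correlations of same-numbered washed-out arrays ranged from -0.114 to 0.765 in the first run (median 0.367, against -0.0839 for other pairs). In the repeat they ranged from -0.107 to 0.637 (median 0.160, against -0.0405). The pulse arrays, which dates in the labels pair, ranged from -0.172 to 0.618 (median 0.292). These ranges therefore cannot decide whether the numbers pair the washed-out arrays, and results are given without and with the block.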

Other observations

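Some genes followed the member probe sets across arrays. Values were taken as log2 relative to the control mean of each run. Over 84 arrays the highest Pearson correlation was 0.87 for Chrm4 Z49748exon_at, with Cxcl6, 0.83 for Chrm2 AB017655_s_at and 0.78 for Chrm5, both with Cit, 0.74 for Chrm3 M16407_at, with Cntfr, and 0.68 for Chrm1 AJ006522mRNA_at, with Bdkrb1. Chrm2 and Chrm4 followed each other at 0.80. Over the 75 arrays that did not stand apart, a choice made after the data were seen, the highest correlations for Chrm4 Z49748exon_at were with Glul at 0.67, Cngb1 at 0.65 and Kcnh2 at 0.64. For Chrm3 M16407_at they were with Cx3cl1 at 0.43 and with Slc32a1 and Ntrk2 at 0.42 each. For Chrm5 they were with Esr2 and P2rx2 at 0.47 each and with Nos2 at 0.46, and for Chrm1 AJ006522mRNA_at with Foxd1 at 0.47, Scnn1b at 0.46 and Bdkrb1 at 0.44. For Chrm2 they were with Chrm4 at 0.58, Chrng at 0.55 and Htr3a at 0.54. The partners depended on the arrays that stood apart. Over the 75 arrays Cxcl6 was at 0.49, Cit at 0.47 for Chrm2 and 0.45 for Chrm5, and Cntfr at 0.39. Of the partners over 75 arrays, Kcnh2, Ntrk2 and Htr3a were at -0.06, -0.43 and -0.07 over all 84. Others were higher over all 84, such as Cngb1 at 0.76. The arrays share scaling, treatments, controls and run, and these values are a description.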
